A study of Mus musculus with 40 samples.

Results

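The comparison described here is that of the vehicles themselves: renal cortex of WT mice that had been given ethanol vehicle against renal cortex of WT mice that had been given water. Its 10 samples, 5 mice for each vehicle, were taken by their labels from the 40 samples of the series. Of the 55401 genes in the count table, 18092 averaged 10 counts or more in these 10 samples and were tested.

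The study treated diabetic Akita mice, heterozygous for the Ins2-Akita mutation, and their WT littermates with MitoGamide, a scavenger of reactive dicarbonyls that accumulates in mitochondria, with MitoQ, an antioxidant directed to mitochondria, or with the vehicle of either drug. Ethanol vehicle served MitoGamide and water served MitoQ. The 10 WT mice were non-diabetic males of the C57BL/6J strain, bred in the Akita colony, and 10 diabetic Akita males given the same vehicles are compared at the end. The series' design gives oral gavage from 6 until 22 weeks of age for both vehicles, the labels give daily dosing with 10% ethanol in water for the ethanol group, and each library came from the renal cortex of 1 animal. The schedule of the water gavage is not detailed further. Whether the vehicle groups were dosed, harvested or sequenced together is not given in the sources used here, so that such a batch and the vehicle cannot be told apart.

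Ethanol is oxidised to acetaldehyde by cytosolic alcohol dehydrogenases, by the microsomal cytochrome Cyp2e1 and by peroxisomal catalase. Aldehyde dehydrogenases, foremost the mitochondrial Aldh2, turn acetaldehyde into acetate, which acyl-CoA synthetases of the Acss family activate. The liver carries most of this work, and the proximal tubule of the kidney, the main cell type of the renal cortex and rich in mitochondria, holds several of the same enzymes.

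The label of the tissue was borne out by the markers. The summed level of 10 proximal tubule markers was 17736 to 20314 CPM (counts scaled to a common library total) in the ethanol libraries and 10773 to 18189 CPM in the water libraries, and all 7 podocyte markers were detected above the count minimum. Transcripts of liver were not spread evenly. The 6 liver markers summed to 522 CPM in water replicate 1 against 32.2 to 67.8 CPM in the other water libraries and 29.3 to 85.6 CPM in the ethanol libraries. Water replicate 1 also held Ucp1, the uncoupling protein of brown fat, at 12.4 CPM and Slc14a2, the urea transporter of the inner medulla, at 28.3 CPM, where no other library exceeded 0.509 and 3.06 CPM. Without this library, the 5 genes Ucp1, Slc14a2, Hpx, Cps1 and Mup20 did not reach the minimum mean count.

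Ethanol libraries were alike, and water libraries were not. Total counts were 15289948 to 24321424 in the ethanol group and 9964109 to 16318325 in the water group. Transcripts of the 13 protein-coding genes of the mitochondrial genome made up 5.21%, 5.28%, 5.54%, 4.84% and 4.98% of the counts in ethanol replicates 1 to 5. They made up 5.06%, 2.45%, 2.73%, 1.65% and 5.01% in water replicates 1 to 5. Water replicates 2, 3 and 4 therefore stood below the other 7 libraries, and water replicates 1 and 5 lay among the ethanol values. Nuclear protein-coding genes took 62.6% to 65.7% of the counts in the ethanol group, 68.4% and 64.0% in water replicates 1 and 5, and 52.0%, 44.2% and 48.5% in water replicates 2, 3 and 4. Mitochondrial rRNA, which remained after rRNA depletion, took 15.1% to 17.7% in the ethanol group and 9.23% to 34.6% in the water group. None of 9 such measures differed between vehicles after adjustment in the exact permutation test (two-sided, smallest possible p 0.00794), the lowest p being 0.0556 for the mitochondrial protein-coding share (adjusted p = 0.25). With 9 measures, 1 that separated the groups fully while the others did not would have an adjusted p of 0.0714 in this exact test and could not pass. Over the series, 0 of 20 libraries of the ethanol arm (ethanol or MitoGamide) and 9 of 20 of the water arm (water or MitoQ) had a mitochondrial protein-coding share under 4%.

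**Figure D1:**
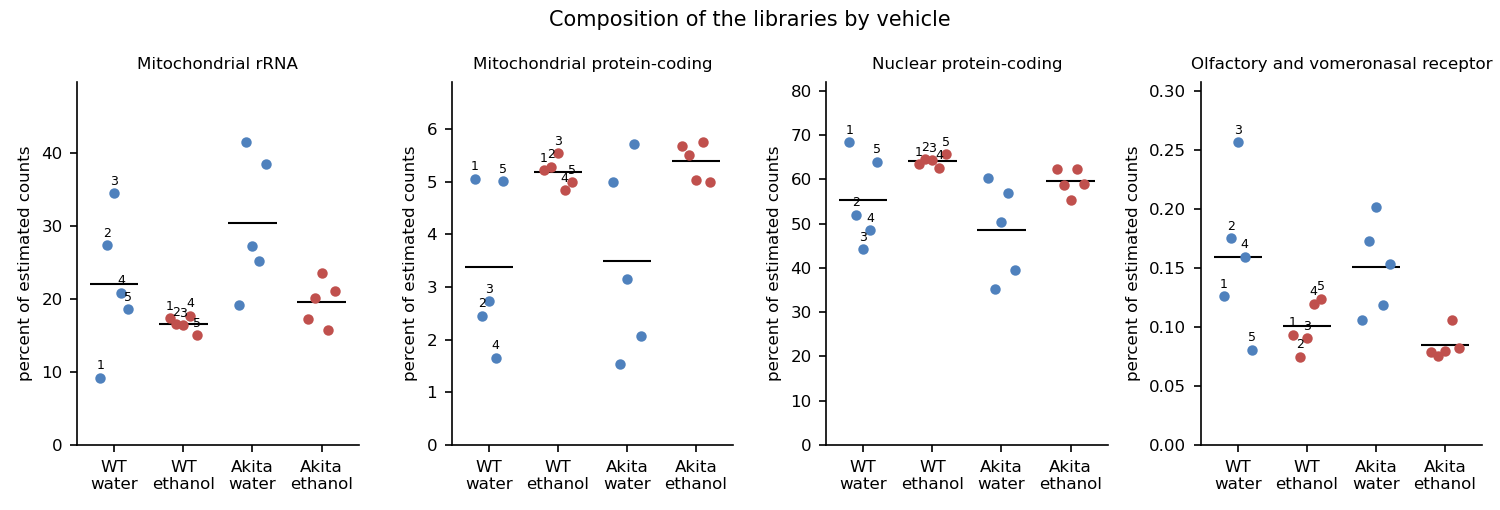
Share of the estimated counts (percent, linear axes from 0) of each library in 4 classes of transcripts, by genotype and vehicle; points are libraries, numbers in the WT groups are replicate numbers and lines are group means. Water replicates 2, 3 and 4 of the WT group lie at 1.65% to 2.73% mitochondrial protein-coding counts, below all ethanol libraries.

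The same 3 libraries set the main axis of variation. The first principal component took 52.0% of the variance in log2 CPM and placed water replicates 2, 3 and 4 at 51.9, 93.8 and 65.5, against −51.3 to −17.0 for the ethanol libraries and −15.2 and −44.3 for water replicates 1 and 5. Water replicate 5 correlated more with the ethanol libraries (mean r = 0.980 across genes) than with its own group (0.939), and so did water replicate 1 (0.961 against 0.937). The median SD of log2 CPM was 0.19 within the ethanol group and 0.41 within the water group, and 86.5% of the genes varied more among the water libraries.

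**Figure D2:**
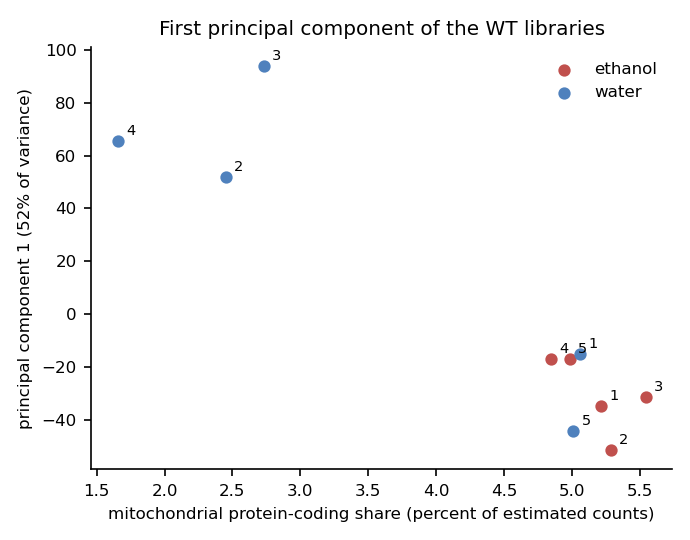
First principal component of log2 CPM (no unit, 52.0% of the variance) against the mitochondrial protein-coding share (percent of estimated counts) of the 10 WT libraries, numbered by replicate. Water replicates 1 and 5 lie with the 5 ethanol libraries and water replicates 2, 3 and 4 lie apart at the left.

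No gene was called between the vehicles in WT mice. With edgeR's quasi-likelihood test and Benjamini-Hochberg adjustment, 0 of 18092 genes (0%) had an adjusted p under 0.05, and the smallest adjusted p was 0.145. At an unadjusted p under 0.05 stood 4959 genes, 2005 with the higher level after ethanol (11.1% of those tested) and 2954 with the lower level (16.3%). The values of the vehicles did not overlap for 298 genes higher after ethanol (1.65%) and for 356 genes lower (1.97%). DESeq2 called 725 genes, 171 higher and 554 lower, and limma's voom with sample quality weights, tried after the data were seen, called 6862. The count of 0 turned on water replicate 5, since without that library edgeR called 5216 genes, 2375 higher (13.0% of those tested in that setting) and 2841 lower (15.6%), of which 723 were among the 725 of DESeq2. Without water replicates 2, 3 and 4, a setting chosen after the data were seen, 0 genes were called by edgeR and 1566 had an unadjusted p under 0.05. In whole tissue, fewer cells of a type and less RNA per cell cannot be told apart, and the p-values measure the spread between single mice of 1 colony.

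Protein-coding genes that separated the vehicles completely were ranked by p, and the smallest values belonged to genes lower after ethanol. Kcnt1, which encodes a sodium-activated potassium channel (chromosome 2, 25863734 to 25918273, GRCm38), led them. It stood at 1.68, 1.33, 1.72, 1.60 and 1.12 CPM in ethanol replicates 1 to 5 and at 7.86, 4.59, 10.7, 6.57 and 2.92 CPM in water replicates 1 to 5. Every water library was higher than every ethanol library, with a log2 fold change of −2.13 ± 0.32 (SE, adjusted p = 0.145, edgeR's quasi-likelihood test). With the nuclear protein-coding share as a covariate, Kcnt1 was called at a log2 fold change of −1.85 (adjusted p = 0.0486, range over its settings 3.82e-06 to 0.293). In the same test it was called with the rRNA share (−2.09, adjusted p = 0.035). It was not called with the mitochondrial protein-coding share (−1.97, adjusted p = 0.189).

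Col23a1, a transmembrane collagen (chromosome 11, 51289920 to 51583918), had nearly equal levels in the 5 water libraries. It was at 0.738, 1.16, 1.17, 0.834 and 0.967 CPM after ethanol and at 2.21, 2.65, 2.57, 2.56 and 2.53 CPM after water. The groups were far apart and each was tight, at a log2 fold change of −1.35 ± 0.22, and the value was −1.29 to −1.31 with each of 3 library shares as a covariate. Crb2, the Crumbs polarity protein of podocytes and other epithelia, was at 2.08, 1.77, 2.39, 2.05 and 2.95 CPM after ethanol and at 3.67, 7.69, 5.57, 6.24 and 4.48 CPM after water (−1.29 ± 0.23), and the nearest libraries of the vehicles were ethanol replicate 5 and water replicate 1. Acacb, the acetyl-CoA carboxylase whose product restrains the entry of fatty acids into mitochondria, was at 25.1, 33.8, 30.4, 27.3 and 32.6 CPM after ethanol. After water it was at 49.5, 50.2, 46.7, 52.7 and 36.2 CPM (−0.66 ± 0.13), so that water replicate 5 lay nearest to the ethanol group.

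The 6 others of the 10 lower genes had log2 fold changes of −1.51 to −0.65. Gcgr, the glucagon receptor, was at 7.78 to 10.9 CPM after ethanol and 13.4 to 20.9 CPM after water (−0.81 ± 0.16). Slco4a1, an organic anion transporter, had −1.23 ± 0.24, Ano8, of the anoctamin family, −0.95 ± 0.18, and Rap1gap, which switches off the small GTPase Rap1, −0.73 ± 0.14. Rhpn1 had −0.65 ± 0.13. Vmn1r13, a vomeronasal receptor gene, was at 2.62 to 3.85 CPM after ethanol and 5.52 to 18.5 CPM after water (−1.51 ± 0.31), with water replicate 1 at 18.5 CPM and the next library at 8.20 CPM, and −1.09 without water replicate 1.

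Among protein-coding genes with the higher level after ethanol and no overlap, Pmaip1, the BH3-only protein Noxa that promotes apoptosis, had the smallest p. It was at 8.59, 12.3, 9.10, 7.44 and 8.96 CPM after ethanol and at 5.57, 3.75, 4.96, 5.79 and 6.30 CPM after water. All ethanol values exceeded all water values (log2 fold change 0.82 ± 0.18, adjusted p = 0.145, edgeR's quasi-likelihood test). Its log2 fold change stayed at 0.69 to 0.77 with each share as a covariate, and it was −0.09 in Akita mice.

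Pet100, an assembly factor of cytochrome c oxidase, was at 12.3, 13.6, 12.7, 11.9 and 10.8 CPM after ethanol and at 8.25, 6.91, 7.28, 8.80 and 9.74 CPM after water (0.59 ± 0.13). Cox20, another such factor, was at 9.62 to 12.0 CPM after ethanol and 3.10 to 7.79 CPM after water (0.89 ± 0.22). In both, water replicate 5 was the water library nearest to the ethanol group. Creb1, the cAMP-responsive transcription factor, was at 38.4, 50.3, 41.0, 38.8 and 39.1 CPM after ethanol and at 32.0, 26.7, 28.4, 27.7 and 33.2 CPM after water (0.49 ± 0.11). Esm1, the endothelial proteoglycan endocan, was at 21.5 to 30.4 CPM against 10.2 to 17.5 CPM (0.71 ± 0.16), and Pcdh12, a protocadherin of endothelium, was higher without overlap too (0.48 ± 0.11). The other 4 were Snapc5, a subunit of the complex that activates small nuclear RNA genes (0.76 ± 0.17), Ubxn2b, a cofactor of the p97 segregase (0.65 ± 0.15), Uchl5, a deubiquitinase of the proteasome (0.74 ± 0.18), and the zinc finger gene Thap2 (0.49 ± 0.11). None of these 20 leading genes reversed its direction in any setting run. They were chosen for the smallest p and no overlap, which largely fixes the direction when libraries are left out. The same choice favours their calls in other fits to these libraries, so that the counts below are no separate support. Of the 20, 20 passed the threshold without water replicate 5, where 13.0% of all genes passed as higher and 15.6% as lower. With DESeq2 20 passed, where 725 of 18092 genes did. Without water replicates 2, 3 and 4, 0 of the 20 and 0 of all tested genes passed. Without those 3 libraries, which leaves 2 in the water group, the log2 fold changes were −1.85 to −0.39 for the 10 lower genes and 0.36 to 0.66 for the 10 higher genes, with −1.82 for Kcnt1 and −1.25 for Col23a1.

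**Figure D3:**
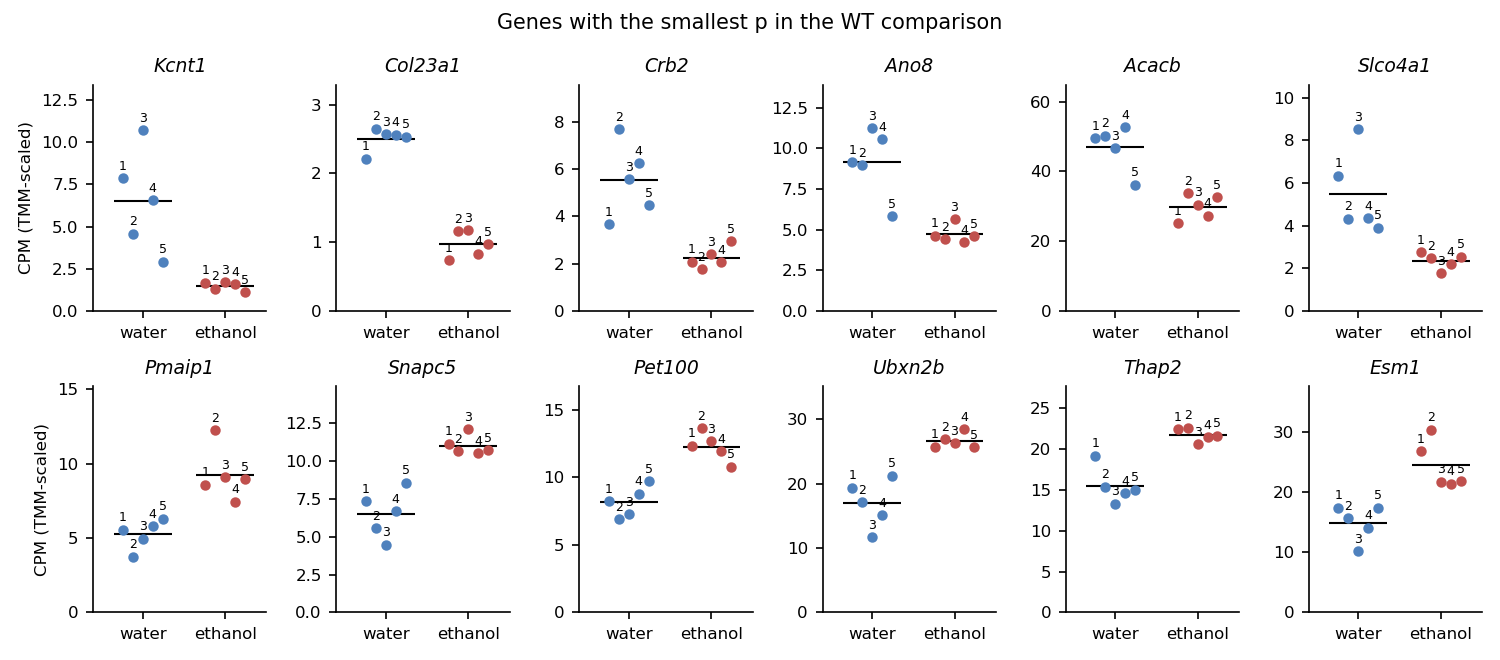
TMM-scaled CPM (linear axes from 0) in the 10 WT libraries of the 6 genes with the smallest p among those lower after ethanol (top row) and the 6 among those higher (bottom row); points are libraries numbered by replicate and lines are group means. The vehicles do not overlap in any of the 12 genes shown, and the 5 water values of Col23a1 lie between 2.21 and 2.65 CPM.

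The largest fold changes were taken among protein-coding genes of at least 50 mean counts and no overlap. In several of these genes water replicates 1 and 5 lay nearer to the ethanol values than water replicates 2, 3 and 4. The cause was not tested. Rps27, of the small ribosomal subunit, was at 86.6, 103, 90.3, 78.6 and 82.0 CPM after ethanol and at 71.9 and 77.4 CPM in water replicates 1 and 5. Water replicates 2, 3 and 4 lay far below, at 12.0 to 21.6 CPM, and its log2 fold change of 1.15 ± 0.46 was 0.42 with the mitochondrial protein-coding share as a covariate. Tfpi2, a Kunitz-type protease inhibitor (1.21 ± 0.38), and Timm8b, a chaperone of the mitochondrial intermembrane space (0.94 ± 0.28), also had water replicates 1 and 5 above water replicates 2, 3 and 4, at 0.53 and 0.38 with that covariate. Slc4a3, a chloride-bicarbonate exchanger, was lower after ethanol (−1.52 ± 0.35, with the covariate −0.50). Erdr1, on the X chromosome, was at 3.35, 4.25, 0.755, 1.73 and 0.0509 CPM after ethanol and at 6.57, 17.3, 26.7, 17.2 and 12.1 CPM after water (−3.01 ± 0.62), without overlap, the nearest libraries being ethanol replicate 2 and water replicate 1.

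Of genes annotated as noncoding or pseudogenes, Ndufb1-ps had the smallest p among those higher after ethanol, at 14.8, 16.8, 18.4, 17.0 and 16.4 CPM against 8.32, 6.33, 4.04, 7.13 and 12.6 CPM (1.12 ± 0.23). Gm12678 (0.79 ± 0.18) and Gm44386 (0.84 ± 0.19) followed. Lower after ethanol were Gm47792 (−1.84 ± 0.37), Gm53 (−1.09 ± 0.23) and Gm3953, which was at 0.335 to 0.641 CPM after ethanol and at 444, 77.3, 6.12, 3.45 and 2.47 CPM in water replicates 1 to 5 (−7.70 ± 1.57, and −5.46 without water replicate 1). Gm3953 is a processed pseudogene, so that reads may be shared with its parent gene.

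The enzymes that handle ethanol and acetaldehyde gave no call with edgeR's quasi-likelihood test on all 10 libraries, and many were spread widely among the water libraries. Of the 22 genes in the list, 21 were tested, 0 were called, 18 had the higher and 3 the lower level after ethanol, and in none did the groups separate. The median log2 fold change was 0.35, against −0.04 over all tested genes, and 3 of the 21 members had an unadjusted p under 0.05 in the higher direction and 1 in the lower, where 11.1% and 16.3% of all tested genes did. Without water replicate 5, 2 of the 21 passed in the higher direction, where 13.0% of all genes did, and 1 in the lower, where 15.6% did. Catalase (Cat), the peroxisomal route from ethanol to acetaldehyde, was at 660, 612, 679, 662 and 576 CPM after ethanol and at 577, 412, 311, 440 and 609 CPM after water (0.44 ± 0.18, adjusted p = 0.163, edgeR's quasi-likelihood test). Cyp2e1, the microsomal route, was at 1133 to 1227 CPM after ethanol and at 1206, 611, 447, 708 and 1303 CPM after water (0.45 ± 0.27). In both genes water replicates 1 and 5 reached the ethanol values and water replicates 2, 3 and 4 did not.

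Of the alcohol dehydrogenases, Adh5 and Adh1 had the higher mean after ethanol and Adh7 the lower, and the differences among them were not tested. Adh5, the class III enzyme that also clears formaldehyde, was at 120 to 142 CPM after ethanol and at 130, 64.4, 54.1, 89.1 and 135 CPM after water (0.47 ± 0.23). Adh1, the classical enzyme, was at 431, 419, 283, 303 and 353 CPM against 547, 161, 162, 260 and 394 CPM (0.23 ± 0.32), with water replicate 1 the highest of all libraries, and Adh7 was at 1.76 to 6.37 CPM against 2.20 to 7.16 CPM (−0.23 ± 0.38). Akr1a1, an aldehyde reductase of the proximal tubule, was at 1158 to 1354 CPM against 430 to 1270 CPM (0.47 ± 0.26).

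Among aldehyde dehydrogenases, Aldh2, the main enzyme for acetaldehyde, was at 403, 393, 401, 359 and 359 CPM after ethanol and at 390, 383, 266, 324 and 398 CPM after water. Its log2 fold change of 0.12 ± 0.14 was smaller than its error. Aldh3a2, for fatty aldehydes, had 0.62 ± 0.26, Aldh9a1 0.44 ± 0.23, Aldh7a1 0.35 ± 0.18 and Aldh1a2, which makes retinoic acid, 0.36 ± 0.20. The nearly identical Aldh1a1 (0.26 ± 0.45) and Aldh1a7 (0.51 ± 0.51) varied from library to library and may share reads. Aldh1a3 was at 0.513 to 1.02 CPM after ethanol and at 3.74, 1.16, 1.47, 0.780 and 0.584 CPM after water (−1.08 ± 0.48), the value of water replicate 1 lying apart and the log2 fold change being −0.46 without it, and Aldh1b1 had −0.55 ± 0.37. The acetate-activating Acss1, Acss2 and Acss3 had 0.33 ± 0.25, 0.12 ± 0.16 and 0.29 ± 0.18, and the acetyl-CoA hydrolase Acot12 had 0.38 ± 0.22. The carboxylesterases Ces1d and Ces1f, relatives of the enzymes that join ethanol to fatty acids, had 0.52 ± 0.22 and 0.33 ± 0.17.

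The median of the list moved with the composition of the libraries. It was 0.27 with the mitochondrial rRNA share as a covariate, 0.07 with the nuclear protein-coding share, 0.07 with the mitochondrial protein-coding share and 0.01 without water replicates 2, 3 and 4. In Akita mice, on other libraries, the median was 0.51 against −0.02 over all genes tested there, and 5 of 21 members rose where 3.66% of all genes did, namely Ces1d (1.05), Ces1f (0.71), Adh5 (0.70), Aldh1a7 (1.09) and Aldh2 (0.41), at adjusted p of 0.0296 to 0.0451 in edgeR's quasi-likelihood test. The calls in Akita mice numbered 2283 and came to 1 or 2 without any of 6 single libraries and to 1 to 3 with a share as a covariate. The part of vehicle and library composition in these values cannot be told apart.

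**Figure D4:**
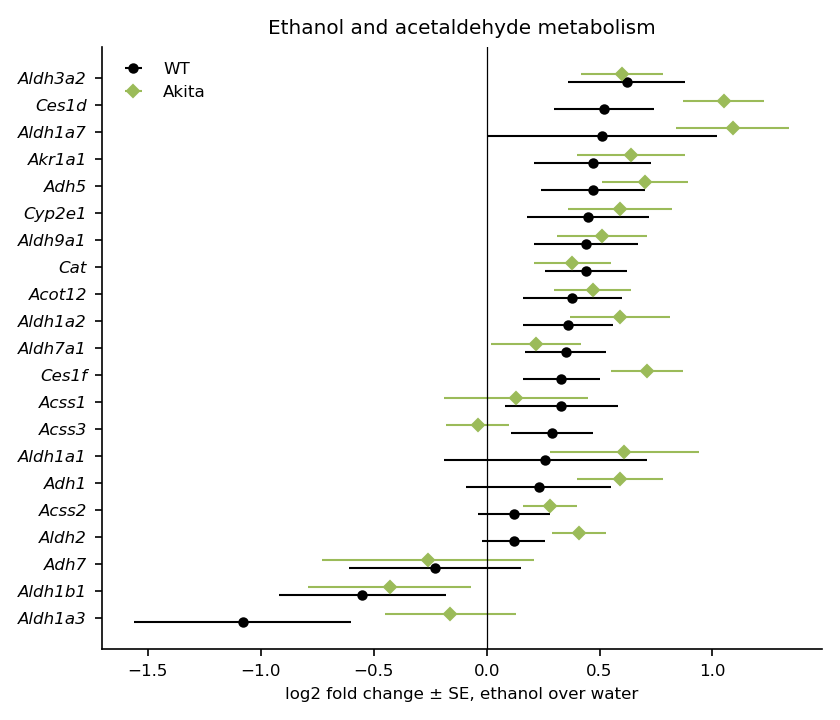
Log2 fold change (ethanol over water, bars ± SE, 5 libraries for each vehicle and genotype) of the 21 tested genes of ethanol and acetaldehyde metabolism in WT (black) and Akita mice (green). In WT mice 18 of the 21 points lie to the right of 0, at a median of 0.35.

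Transcripts for the mitochondrial respiratory chain and the ribosome were mostly at the higher level after ethanol. Of 79 nuclear-encoded respiratory chain subunits, 78 had the higher level after ethanol, 31 at an unadjusted p under 0.05 (11.1% over all tested genes) and 0 called by edgeR's quasi-likelihood test. Their median log2 fold change was 0.52. Ndufb3, of complex I, was at 27.1 to 29.4 CPM after ethanol and at 18.8, 9.95, 10.1, 18.5 and 25.8 CPM after water (0.76 ± 0.23), and Ndufa5 was at 30.8 to 37.6 against 19.9 to 31.0 CPM (0.53 ± 0.13). Without water replicate 5, 33 of the 79 were called higher and 0 lower, where 13.0% and 15.6% of all genes were. Of 78 cytosolic ribosomal protein genes, 77 were higher, 33 of them at an unadjusted p under 0.05, at a median of 0.59, for example Rpl36a (0.72 ± 0.19) and Rpl21 (0.83 ± 0.25). The 37 proteasome subunits had a median of 0.42, with 34 higher, for example Psmc6 (0.65 ± 0.21) and Psma1 (0.65 ± 0.22). Without water replicates 2, 3 and 4 these medians were 0.02, 0.05 and 0.00, and ribosomal protein genes have processed copies among which the quantification may divide reads.

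All 13 protein-coding transcripts of the mitochondrial genome were higher after ethanol, with a median of 0.76, 9 at an unadjusted p under 0.05 (11.1% of all tested genes in this direction) and 3 without overlap (1.65%). mt-Nd5, of complex I, was at 4516, 3621, 4978, 4338 and 3629 CPM after ethanol and at 2336, 2027, 2925, 2398 and 3300 CPM after water (0.70 ± 0.20, adjusted p = 0.145, edgeR's quasi-likelihood test). mt-Nd4l was at 971, 682, 1098, 971 and 657 CPM against 160, 302, 689, 417 and 417 CPM (1.14 ± 0.32), and its reading frame overlaps that of mt-Nd4, so that reads may be shared. It was called by edgeR's quasi-likelihood test with the rRNA share (1.52, adjusted p = 0.0353) or the nuclear protein-coding share (1.70, adjusted p = 0.0364) as a covariate, and not with the mitochondrial protein-coding share (1.46, adjusted p = 0.545). mt-Co2 differed from these, at 2809 to 5932 CPM after ethanol and at 5682, 2610, 2704, 647 and 6385 CPM after water (0.18 ± 0.47), with water replicates 1 and 5 at or above most ethanol libraries. The median over the 13 was 0.69, 0.52 and 0.35 with the rRNA, nuclear protein-coding and mitochondrial protein-coding shares as covariates and 0.35 without water replicates 2, 3 and 4. The last covariate is made of these transcripts themselves, and water replicates 2, 3 and 4 were set apart by them.

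Most chaperones of the cytosol and the endoplasmic reticulum had the higher level after ethanol in WT mice, and none was called by edgeR's quasi-likelihood test on all 10 libraries. Without water replicate 5 that test called 9 of 24 cytosolic and 10 of 22 reticulum members higher, where 13.0% of all genes were, and 1 of each list lower, where 15.6% were. Of 24 cytosolic heat shock and HSF1-dependent chaperone genes, 19 had the higher level, at a median of 0.41. Of these, 10 had an unadjusted p under 0.05 (11.1% of all tested genes in this direction). In 7 of the 24 the vehicles did not overlap with ethanol higher, where 1.65% of all tested genes did so. Hspa4l, a nucleotide exchange factor for Hsp70, was at 53.8, 72.7, 55.0, 56.8 and 52.5 CPM after ethanol and at 44.7, 32.7, 27.1, 42.9 and 44.6 CPM after water (0.60 ± 0.16). Chordc1, an Hsp90 co-chaperone, was at 51.2, 77.6, 49.7, 55.2 and 54.5 CPM against 40.5, 25.4, 33.6, 44.4 and 42.1 CPM (0.63 ± 0.17). In both genes ethanol replicate 2 was highest and the other 4 ethanol libraries still exceeded all water libraries. The other 5, named after their values were seen, were the mitochondrial co-chaperonin Hspe1 (0.85 ± 0.24), the Hsp40 protein Dnaja1 (0.76 ± 0.22), Cacybp (0.82 ± 0.23), the inducible Hsp90 gene Hsp90aa1 (0.69 ± 0.23) and its activator Ahsa1 (0.43 ± 0.17).

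Not every chaperone had this direction. The inducible Hsp70 genes Hspa1a and Hspa1b, near-identical copies, ranged from 12.3 to 100 CPM and from 22.3 to 129 CPM after ethanol and from 9.74 to 125 CPM and from 15.6 to 185 CPM after water (−0.18 ± 0.63 and −0.25 ± 0.59). Cryab, a small heat shock protein, had −0.63 ± 0.27, with water replicate 1 at 35.6 CPM and the next library at 16.6 CPM (−0.27 without water replicate 1), and Hsf1 itself had −0.37 ± 0.17. In the endoplasmic reticulum, 20 of 22 tested genes were higher, at a median of 0.46. At an unadjusted p under 0.05 stood 10 of them (11.1% of all tested genes in this direction). Manf, a secreted factor of the unfolded protein response, was at 32.1, 72.3, 47.5, 48.8 and 59.2 CPM after ethanol and at 32.8, 18.1, 10.2, 26.0 and 28.6 CPM after water (1.17 ± 0.29), water replicate 1 just exceeding ethanol replicate 1. Hsp90b1, the Hsp90 of this compartment, was at 429, 539, 394, 435 and 539 CPM against 339, 231, 209, 350 and 371 CPM (0.64 ± 0.19) without overlap, and Hspa5, its Hsp70, had 0.69 ± 0.23. Ddit3, the stress-induced transcription factor CHOP, had −0.37 ± 0.26.

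The medians of both lists came closer to 0 when the libraries' composition was taken into the fit. For the cytosolic list they were 0.33, 0.18 and 0.34 with the rRNA, nuclear protein-coding and mitochondrial protein-coding shares as covariates and 0.24 without water replicates 2, 3 and 4. For the reticulum they were 0.36, 0.18, 0.26 and 0.20. In Akita mice the medians were 0.09 and 0.11, and 1 of 24 cytosolic members rose and 1 of 22 of the reticulum fell, where 3.66% and 9.07% of all genes did. These were Hspe1 (0.73, adjusted p = 0.0393, edgeR's quasi-likelihood test) and Ddit3 (−0.74, adjusted p = 0.0301), while Hsp90b1 had −0.00, Chordc1 −0.24 and Hspa5 −0.13. The difference between genotypes was not called for any member of either list, and its estimate was 0.86 for Chordc1, 0.81 for Hspa5 and 0.63 for Hsp90b1 on the log2 scale (WT minus Akita). Whether ethanol or the composition of 3 water libraries gave the rest was not tested.

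**Figure D5:**
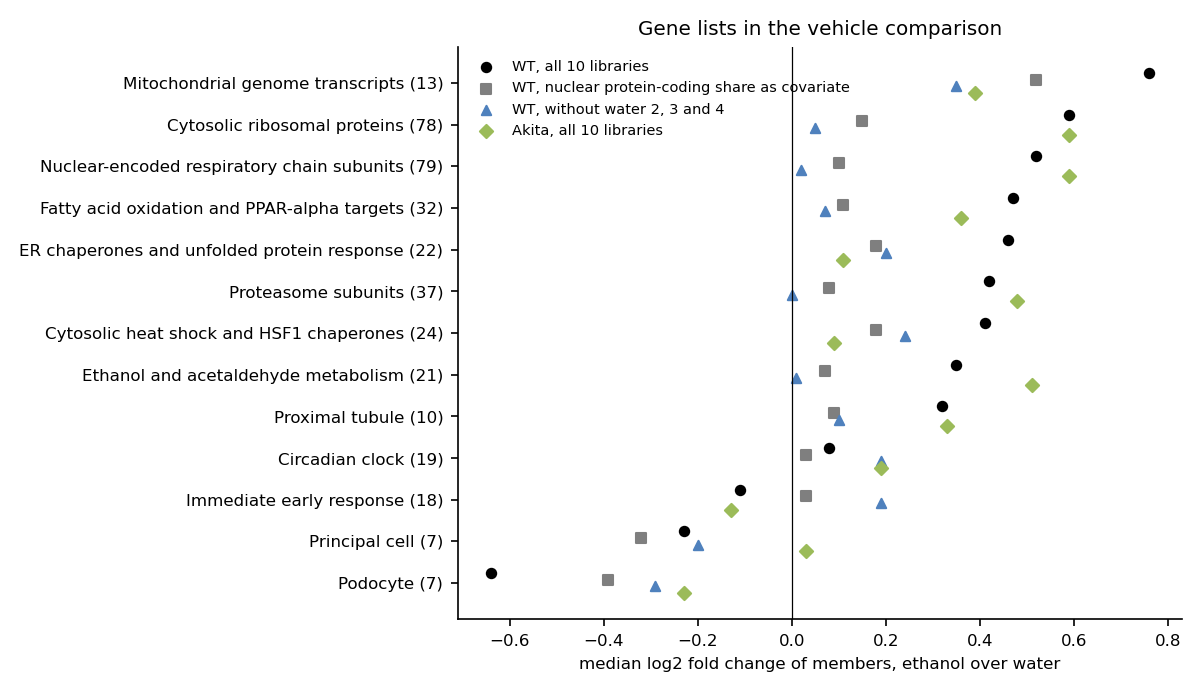
Median log2 fold change (ethanol over water) of the tested members of 13 gene lists, with the number of members tested in WT mice in brackets, for all WT libraries, with the nuclear protein-coding share as a covariate, without water replicates 2, 3 and 4, and in Akita mice. Ribosome, respiratory chain and proteasome lists lie near 0 without those 3 libraries, and both chaperone lists lie at 0.20 and 0.24.

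Members of 3 further lists were mostly at the higher level after ethanol. Of 32 fatty acid oxidation genes and PPAR-alpha targets, 30 were higher (median 0.47), among them Cpt2, of the carnitine shuttle, at 95.3 to 161 CPM after ethanol and 39.8 to 108 CPM after water (0.73 ± 0.26), and Vnn1, a pantetheinase (0.90 ± 0.31). Androgen-responsive kidney transcripts had 11 of 12 higher (median 0.42), with the aldo-keto reductase Akr1c21 at 0.76 ± 0.26. Antioxidant and NRF2 target genes had 28 of 32 higher (median 0.30), with the mitochondrial peroxiredoxin Prdx3 at 0.73 ± 0.26 and thioredoxin Txn1 at 122 to 128 CPM after ethanol and 41.9 to 117 CPM after water (0.64 ± 0.24). Without water replicates 2, 3 and 4 these 3 medians were 0.07, −0.09 and −0.06, so that the last pair lay on the other side of 0. Without water replicate 5, edgeR's quasi-likelihood test called 14 of 32, 2 of 12 and 9 of 32 members higher, where 13.0% of all genes were. It called 0, 0 and 1 of them lower, where 15.6% of all genes were.

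The remaining pathway lists had medians of −0.11 to 0.35, and 8 of these 11 medians lay on the other side of 0 without water replicates 2, 3 and 4. In that setting they were −0.10 for glycolysis and gluconeogenesis, −0.14 for cholesterol and fatty acid synthesis, −0.11 for tubular injury, −0.03 for amino acid metabolism and for p53 targets, −0.01 for hypoxia, 0.08 for extracellular matrix and 0.19 for immediate early genes. With each library left out in turn, medians ran from −0.06 to 0.15 for circadian genes and from 0.15 to 0.42 for glucocorticoid targets. For interferon-stimulated and antigen presentation genes they ran from 0.02 to 0.29. On all 10 libraries, cholesterol and fatty acid synthesis had 0.17, with Stard4 at 0.60 ± 0.21 beside Acacb, and amino acid and one-carbon metabolism had 0.10, with the serine synthesis enzyme Psat1 at 0.83 ± 0.31 and glutamine synthetase Glul at 0.52 ± 0.22. Glycolysis and gluconeogenesis had 0.33, with hexokinase Hk2 at −1.14 ± 0.34 and glucose-6-phosphatase G6pc at 0.64 ± 0.23. Circadian genes had 0.08, and Clock (0.56 ± 0.16) and Rora (0.61 ± 0.17) led them. Immediate early genes had −0.11 (Fos −1.24 ± 0.53, but −0.59 without water replicate 2, and Jund −0.31 ± 0.13) and p53 targets 0.10. Hk2 and Fos were weakly expressed. With all groups of the series scaled together, Hk2 averaged 0.549 CPM after ethanol and 1.23 CPM after water, and Fos 0.673 and 1.62 CPM. Glucocorticoid targets had 0.35 (Mt2 0.37 ± 0.18, Sgk1 0.42 ± 0.24, the latter at 0.15 to 0.55 with single libraries left out). Hypoxia-inducible factors and targets had 0.17 (Higd1a 0.72 ± 0.20, Pfkfb4 −0.48 ± 0.15), interferon-stimulated and antigen presentation genes 0.15 (H2-Aa 0.52 ± 0.19, H2-Eb1 0.39 ± 0.17), tubular injury genes 0.06 (Vim −0.53 ± 0.15) and extracellular matrix −0.10 (Lama5 −0.85 ± 0.22, Lamb2 −0.34 ± 0.12). No member of these lists was called in WT mice by edgeR's quasi-likelihood test on all 10 libraries. Without water replicate 5 it called 13.0% of all genes higher and 15.6% lower. Of 27 amino acid members 6 were then called higher, and of 15 hypoxia members 4 higher and 3 lower. Of 30 cholesterol and fatty acid synthesis members 3 were called higher and 1 lower, and of 14 p53 targets 3 higher. Circadian genes had 2 of 19 in each direction, and each other list had 0 or 1 higher and 0 to 2 lower.

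Markers of the cell types moved in both directions. All 10 proximal tubule markers were higher after ethanol (median 0.32, but 0.10 without water replicates 2, 3 and 4 and 0.09 with the nuclear protein-coding share as a covariate), among them the endocytic receptors Lrp2 (0.67 ± 0.26) and Cubn (0.69 ± 0.26). All 7 podocyte markers were lower (median −0.64), 5 at an unadjusted p under 0.05 (16.3% of all tested genes in this direction) and 0 called by edgeR's quasi-likelihood test. Without water replicate 5, 4 of the 7 were called lower, where 15.6% of all genes were. Nphs1, nephrin of the slit diaphragm, was at 10.2, 14.6, 15.3, 12.8 and 11.8 CPM after ethanol and at 14.7, 31.4, 23.9, 31.4 and 17.5 CPM after water (−0.87 ± 0.21). Wt1, the podocyte transcription factor, was at 4.29, 3.54, 6.63, 5.58 and 4.68 CPM against 8.02, 14.5, 8.57, 13.7 and 6.56 CPM (−1.04 ± 0.25), the groups overlapping by 1 pair of libraries, and Cdkn1c was lower without overlap (−1.03 ± 0.26). Without water replicates 2, 3 and 4 the podocyte median was −0.29, and with the 3 shares as covariates it was −0.39, −0.39 and −0.33. The summed podocyte markers reached 216 to 302 CPM after ethanol and 268 to 482 CPM after water.

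Of 6 markers of the distal convoluted tubule 4 were higher (median 0.17), and of 8 markers of intercalated cells 2 were higher (median −0.13). Slc12a3, the thiazide-sensitive cotransporter, was at 486, 830, 739, 686 and 893 CPM after ethanol and at 681, 1439, 1561, 1864 and 845 CPM after water (−0.81 ± 0.28), and Slc4a9, of intercalated cells, had −0.99 ± 0.27. In both, water replicates 2, 3 and 4 were the high libraries. Macrophage markers had 7 of 8 higher (median 0.44), with C1qa at 0.59 ± 0.23 and C1qc at 0.49 ± 0.18. Endothelial markers had 7 of 9 higher (median 0.23), with Flt1 at 90.6 to 117 CPM after ethanol and 65.9 to 81.6 CPM after water (0.40 ± 0.11) without overlap and Egfl7 at −0.50 ± 0.18. Of 8 stromal and mesangial markers 3 were higher and 5 lower (median −0.06). Acta2, smooth muscle actin, had −0.58 ± 0.20, and Ren1, renin of the juxtaglomerular cells, had −0.76 ± 0.32 with water replicate 2 at 106 CPM and no other library above 36.3 CPM. Leaving out single libraries gave −0.86 to −0.25 for Ren1.

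Without water replicate 1 the median log2 fold change of the 6 liver markers moved from −1.39 to 0.29. Alb, albumin, was at 4.84 to 7.13 CPM after ethanol and at 311, 12.1, 2.82, 32.8 and 5.91 CPM after water (−3.62 ± 1.08), and at −1.14 without water replicate 1. The plasma protein gene Hpx was at 0 to 0.0671 CPM after ethanol and at 22.1, 1.10, 0.122, 3.23 and 0.260 CPM after water. With a share of the library as a covariate, edgeR called 22 genes (mitochondrial rRNA share) or 33 (nuclear protein-coding share). Of these, 17 and 25 had their highest level in water replicate 1, and 11.7% of all tested genes had theirs there. The called genes include the liver genes Alb, Hpx, Cps1 and Mup20, named after their values were seen. Hpx, Cps1 and Mup20 reached the minimum mean count only through water replicate 1, which largely fixed that their highest level lay there. The counts of 17 and 25 are therefore not set against the share of all genes. Reads assigned to Lars2, the gene of a mitochondrial leucyl-tRNA synthetase, were at 101 to 270 CPM after ethanol. After water they were at 2153, 594, 1061, 19989 and 163 CPM (−4.95 ± 1.13), only water replicate 5 lying in the ethanol range. They also spread widely in the WT MitoQ group (mean 8681, SD 15990 CPM). Whether these reads came from the synthetase transcript was not tested. Leaving out single libraries gave −5.26 to −2.67 for Lars2.

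Classes of transcripts differed in direction. Of 3235 long noncoding and unclassified genes, 88.1% had the lower level after ethanol (median −0.57), as did 72.4% of 510 processed pseudogenes (−0.44), while the median of 14089 nuclear protein-coding genes was 0.05. Genes of olfactory and vomeronasal receptors, some of which are known to act in the kidney, were lower in 320 of 329 cases (97.3%, median −0.70). At an unadjusted p under 0.05 stood 133 of them (16.3% of all tested genes in this direction). The summed share of the receptor genes was 0.0749% to 0.124% of the counts after ethanol and 0.126%, 0.175%, 0.257%, 0.159% and 0.0808% in water replicates 1 to 5. With the nuclear protein-coding share as a covariate the medians of noncoding and receptor genes were −0.06 and −0.12. They were −0.34 and −0.45 with the rRNA share, and −0.04 and −0.12 with the mitochondrial protein-coding share. Among nuclear protein-coding genes, the median log2 fold change went from 0.23 to −0.04 between the shortest and the longest of 10 equal groups by exonic length, and from 0.15 to −0.21 between the lowest and the highest of 10 groups by GC content (Spearman −0.17 and −0.29 across genes, which are not independent). In the group of the shortest genes, water replicates 2, 3 and 4 were at −0.35, −0.66 and −0.35 relative to the ethanol mean, and water replicates 1 and 5 at 0.07 and 0.00.

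The same vehicles were compared in Akita mice, with 10 other libraries. There 657 of 17928 genes (3.66%) rose and 1626 (9.07%) fell with edgeR's quasi-likelihood test. Leaving out 1 library moved this count of 2283 to between 1 and 6496: to 1 or 2 without ethanol replicate 1, 2, 3 or 5 or water replicate 3 or 5, to 132 without water replicate 2, to 1178 without ethanol replicate 4, and to 6496 or 6120 without water replicate 1 or 4. Akita water libraries held 1.54% to 5.71% mitochondrial protein-coding counts and the Akita ethanol libraries 4.99% to 5.75%. Over the 17553 genes tested in both genotypes, log2 fold changes had a Spearman correlation of 0.797 and the same sign in 82.2%. Of the 4796 genes with an unadjusted p under 0.05 in WT mice, 4573 (95.4%) had the same sign in Akita mice and 959 were called there in the same direction and 1 in the opposite direction, where 12.9% of all genes tested in both were called. In both genotypes the low mitochondrial share was on the water side, so that this likeness does not tell vehicle from library composition.

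No gene was called for a difference between genotypes in its response to the vehicle. The interaction test with edgeR called 0 of 18050 genes (0%), with 767 at an unadjusted p under 0.05, and DESeq2 called 2. For leading WT genes the estimates in Akita mice were −1.43 ± 0.53 for Kcnt1, −0.56 ± 0.26 for Col23a1, −0.29 ± 0.12 for Acacb and 0.39 ± 0.18 for Pet100. Of the other genes higher in WT mice, Pmaip1 had −0.09 ± 0.31, Creb1 −0.07 ± 0.13 and Thap2 0.06 ± 0.12. Esm1 had 0.78 ± 0.24, Snapc5 0.47 ± 0.19, Uchl5 0.38 ± 0.22, Ubxn2b 0.36 ± 0.19, Cox20 0.36 ± 0.25 and Pcdh12 0.21 ± 0.15. None of these genes was called in Akita mice. Crb2 was called lower in Akita mice by edgeR's quasi-likelihood test (−0.61 ± 0.18, adjusted p = 0.0490), as was Vmn1r13 (−1.26 ± 0.26, adjusted p = 0.0296). So were the podocyte genes Nphs1 (−0.42, adjusted p = 0.0393) and Wt1 (−0.42, adjusted p = 0.0446). These were 2 of 7 podocyte markers (median −0.23), where 9.07% of all genes were called lower. The Akita calls turned on single libraries, as given above, and 1 gene was called with the rRNA share as a covariate.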

How the data were processed

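Renal cortex RNA was depleted of rRNA and sequenced from directional libraries as single reads. The authors trimmed reads with Skewer, quantified them on GENCODE M25 transcripts of GRCm38 with kallisto 0.46.1 and summed transcripts by gene in R 4.0.2. The deposited values are estimated counts, whole numbers without scaling. Names, positions, biotypes, exonic length and GC content came from GENCODE M21, in which 99.5% of the identifiers were found.

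Genes averaging 10 counts or more in a comparison were tested in R 4.3.3 with edgeR 4.0.16 (TMM scaling, quasi-likelihood test, Benjamini-Hochberg adjustment over all tested genes, adjusted p under 0.05). Per-library values are CPM scaled by TMM, and summed marker levels and shares use all counts of a library. Shares were compared with exact permutation tests. Alternatives were DESeq2 1.42.0, its size factors in edgeR, other count minimums, the replicate number as a block, a single fit to all 40 libraries, shares as covariates, mitochondrial rRNA genes left out and each library left out in turn. Leaving out libraries under 4% mitochondrial protein-coding counts, the mitochondrial protein-coding share as a covariate and voom with sample quality weights in limma 3.58.1 were chosen after seeing the data.

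The members, gene lists and tests were chosen with earlier results of these data known. Named are, among protein-coding genes without overlap, the 10 per direction with the smallest p, the 3 per direction with the largest fold at 50 or more mean counts, 3 noncoding genes per direction, all tested genes of ethanol and acetaldehyde metabolism and the 2 members of each list with the smallest p, of which some are not printed. As edgeR's quasi-likelihood test on all 10 libraries called no gene, these are given as not called by it. DESeq2 called 57 of the 122 named genes and 725 of all 18092. As many of the 122 were named for a small p in these data, the first count is no result about them. Outside this rule, and chosen after their values were seen, are Hspe1, Cacybp, Dnaja1, Hsp90aa1, Ahsa1, Hsf1, Cryab, Hspa1a, Hspa1b, Hspa5, Ddit3, Cdkn1c, mt-Co2, Hpx, Cps1, Mup20 and Lars2.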

Additional observations from a re-analysis of the deposited data

Results flagged for a closer look

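Within the WT groups of 5, 27 of 262 sets of values held a library far from the other 4 by Dixon's criterion, where chance marks about 1 in 20 groups. As some of these genes were chosen after their values were seen, and 5 reached the minimum mean count only through water replicate 1, the number is not set against chance.

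Water replicate 1 stood apart in 11 of them. Genes of liver were high in it, with Alb at 311 CPM, Hpx at 22.1 CPM, Cps1 at 31.8 CPM and Mup20 at 18.2 CPM. So were Ucp1 at 12.4 CPM, Slc14a2 at 28.3 CPM, Gm3953 at 444 CPM, Vmn1r13 at 18.5 CPM, Aldh1a3 at 3.74 CPM and Cryab at 35.6 CPM, and Col23a1 was the lowest of its group at 2.21 CPM.

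Ethanol replicate 2 was the highest of its group for the chaperone genes Hspa4l (72.7 CPM), Chordc1 (77.6 CPM), Cacybp (41.6 CPM), Dnaja1 (347 CPM) and Ahsa1 (62.0 CPM), for Creb1 (50.3 CPM) and for H2-Eb1 (63.6 CPM).

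Of the other libraries, ethanol replicate 4 was not marked and the rest were marked in 1 or 2 genes each. Water replicate 2 was high for Ren1 (106 CPM) and Cdkn1c (31.3 CPM), water replicate 3 low for H2-Eb1 (25.4 CPM), water replicate 4 high for Lars2 (19989 CPM) and water replicate 5 high for Gm44386 (3.96 CPM). Ethanol replicate 3 was high for Ano8 (5.66 CPM) and low for Gm47792 (0.210 CPM), ethanol replicate 5 high for Gm53 (10.3 CPM), and ethanol replicate 1 was the only ethanol library with any Mup20 (0.0671 CPM).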

How the results depend on the processing

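The count of 0 genes called in WT mice was also 0 with DESeq2's size factors in edgeR, without a filter, with at least 10 counts in every library, without the mitochondrial rRNA genes, with the mitochondrial protein-coding share as a covariate and without water replicates 2, 3 and 4. It was 725 with DESeq2, 1570 with all 40 libraries in one fit, 22 with the mitochondrial rRNA share and 33 with the nuclear protein-coding share as a covariate, and 6862 with voom and quality weights. Leaving out each library gave 0 to 5216. The cause was not tested.

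In Akita mice the count of 2283 became 4264 with DESeq2, 1352 without a filter, 1, 2 and 3 with the rRNA, nuclear protein-coding and mitochondrial protein-coding shares as covariates, 6 without the libraries under 4%, 10251 with voom and 1 to 6496 with each library left out. The interaction gave 2 genes with DESeq2 and 0 to 1 with each library left out.

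The replicate number did not pair the samples, since the deviations of same-numbered WT libraries correlated at 0.102, −0.094, −0.061, 0.174 and −0.246, and 1 of 5 ethanol libraries was most like the water library of its own number. With the replicate block, 2 genes were called in WT mice (Cps1 and Mup20), 0 in Akita mice and 0 in the interaction.

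Directions of some genes reversed. With the nuclear protein-coding share as a covariate, log2 fold changes were −0.22 for Aldh1a7, −0.04 for Aldh2, −0.08 for Acss2, −0.22 for Adh1, 0.11 for Adh7, −0.41 for Aldh1a1, 0.10 for Hspa1a, 0.17 for Hspa1b and −0.32 for mt-Co2. With the mitochondrial protein-coding share they were −0.02 for Acot12, −0.24 for Aldh1a7, −0.02 for Aldh2, −0.11 for Acss2, −0.22 for Adh1, 0.06 for Adh7, −0.41 for Aldh1a1, 0.03 for Hsf1, 0.53 for Hspa1a, 0.65 for Hspa1b, 0.01 for Ddit3 and −0.76 for mt-Co2. Without water replicates 2, 3 and 4 they were −0.00 for Adh5, −0.08 for Acot12, −0.08 for Cyp2e1, −0.36 for Aldh1a7, −0.02 for Aldh2, −0.15 for Acss2, −0.38 for Adh1, 0.01 for Adh7, −0.49 for Aldh1a1, 0.03 for Hsf1, 0.32 for Hspa1a, 0.44 for Hspa1b, 0.06 for Ddit3 and −0.55 for mt-Co2, and with voom 0.02 for Ucp1. Leaving out single libraries gave −0.10 to 0.68 for Aldh1a1, −0.69 to 0.45 for Hspa1a, −0.70 to 0.44 for Hspa1b and −0.08 to 0.49 for mt-Co2.

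For library measures (log2 ethanol minus water) with each library left out, the WT range was −0.57 to −0.091 for mitochondrial rRNA, 0.15 to 0.31 for nuclear protein-coding, 0.52 to 0.92 for mitochondrial protein-coding, −0.62 to −0.33 for long noncoding genes, −0.57 to −0.20 for small noncoding genes, −0.81 to −0.39 for receptors and −0.0422 to 0.026 for genes with at least 10 counts. The Akita range was −0.74 to −0.46 for mitochondrial rRNA, 0.22 to 0.41 for nuclear protein-coding, 0.54 to 1.02 for mitochondrial protein-coding, −0.64 to −0.47 for long noncoding, −0.92 to −0.69 for receptors, −0.32 to 0.017 for small noncoding genes and −0.060 to 0.0059 for genes with at least 10 counts. Outside mitochondrial rRNA, Akita shares gave −0.77 for long noncoding, −1.02 for receptors and −0.0060 for pseudogenes. Depth, 9964109 counts in the shallowest WT library, limits genes near 10 counts.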
